A study of Mus musculus with 4 samples.

Results

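The genes described here carry vitamin A (retinol) to cells and turn it into retinoic acid. They were chosen by symbol from an expression table: Rbp4, Stra6, Crabp1, Crabp2, Aldh1a1, Aldh1a2, Aldh1a3, Rdh10 and Dhrs3, 9 of the 47069 Ensembl gene identifiers in the table. RNA was sequenced from mBMSCs, adherent stromal cells grown from the tibia and femur marrow of wild-type C57BL/6J mice (8 weeks old) and used at passage P1. One group received 50 μM GA plus 1 μM DEX and the other an equal volume of DMSO plus 1 μM DEX, both for 3 d from full confluence, with 2 libraries per group. GA, ginkgolic acid, inhibits sumoylation, the attachment of SUMO proteins to other proteins, and DEX, dexamethasone, is a synthetic glucocorticoid that all 4 libraries share. There was no group without DEX, so the comparison is of added GA in the presence of DEX. The sources used here do not state whether libraries of a group came from different mice or cultures, and the p-values therefore cover only the differences among these 4 libraries, which can be technical.

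Retinol travels in blood bound to RBP4, enters cells by diffusion or through the receptor STRA6, and is oxidised in 2 steps. Retinol dehydrogenases such as RDH10 give retinaldehyde, which DHRS3 can reduce back to retinol, and the ALDH1A enzymes oxidise retinaldehyde irreversibly to retinoic acid. CRABP proteins hold retinoic acid in the cytoplasm, receptors of the RAR and RXR families read it in the nucleus, and CYP26 enzymes break it down. In fat tissue, RBP4 is a secreted product of adipocytes, and retinoic acid is known to inhibit the formation of adipocytes from precursor cells.

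Expression is given as FPKM, fragment counts normalised to gene length and to the depth of the library. Ranks and ratios of level between genes depend on the length assumed for each gene. The depth recovered from the values was 21559951 to 31069538 reads per library, and 1 FPKM over a length of 1 kb corresponded to 21.6 to 31.1 reads. Limma was run two-sided on log2(FPKM + 1) for the 12174 genes whose FPKM averaged 1 or more, with calls made below a Benjamini-Hochberg adjusted p of 0.05. Log2 fold changes are those of FPKM + 1, which makes them too small for weakly expressed genes, whereas folds divide the group means of FPKM. With GA the median gene had a log2 value higher by 0.19. Results are therefore also given after the log2 values of each library were moved to a common median, a shift that lowered every log2 fold change by 0.23. In cultures labelled as stromal cells, all 9 marrow stromal markers were expressed (summed FPKM 408 and 420 with DMSO, 1326 and 1319 with GA, 8 higher and 1 lower, 6 and 1 after the shift). Cxcl12 was the most abundant in every library, and Kitl was second with GA only. Markers of other cells stood beside them, with macrophage markers at a summed FPKM of 3036 to 3309 with DMSO and 3827 to 4470 with GA (9 of 10 higher, 6 after the shift). Lyz2 was the most abundant of them in every library, and C1qa was second over the 4 libraries together. These counts stand beside 46.3% of all genes tested called higher and 11.9% lower, or 19.5% and 27.9% after the shift.

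Of the 9 retinoid genes, 6 were expressed at a mean FPKM of at least 1 and were tested. Rbp4, Aldh1a1, Aldh1a2, Rdh10 and Dhrs3 were higher in GA plus DEX, and Crabp2 was lower. Stra6, Crabp1 and Aldh1a3 lay below the minimum and were not tested. Of all genes tested, 46.3% were called higher and 11.9% lower, so a rise by itself was common in these libraries. After the shift the same 5 genes were called higher and Crabp2 lower, where 19.5% of all genes tested were higher and 27.9% lower. The median log2 fold change of the 6 genes was 0.66, beside 0.19 for all genes tested. In each of the 6 genes the libraries of the groups did not overlap, as in 62.5% of all genes tested with both GA libraries above and 18.3% with both below.

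**Figure D1:**
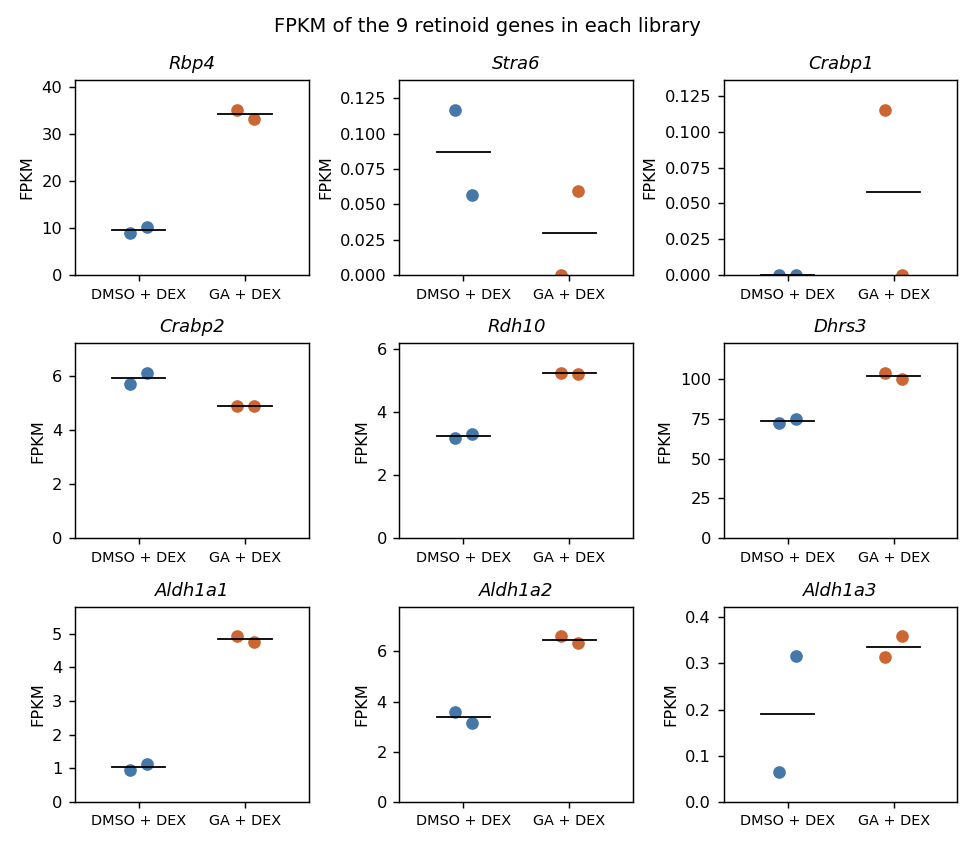
FPKM (vertical axes, each with its own scale from 0) of the 9 retinoid genes in the 2 libraries of DMSO plus DEX (blue) and of GA plus DEX (orange), with a line at each group mean. Both GA libraries lie above both DMSO libraries for Rbp4, Rdh10, Dhrs3, Aldh1a1 and Aldh1a2 and below them for Crabp2, while Stra6, Crabp1 and Aldh1a3 stay under 0.4 FPKM and overlap.

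The genes differed more in level than in change. With DMSO, Dhrs3 was the most abundant at 73.4 ± 1.67 FPKM, followed by Rbp4 at 9.56 ± 0.953, Crabp2 at 5.91 ± 0.287, Aldh1a2 at 3.36 ± 0.289, Rdh10 at 3.25 ± 0.101 and Aldh1a1 at 1.03 ± 0.125 (SD, n = 2). Aldh1a2 and Rdh10 overlapped in this order, and the other neighbours among these 6 did not. With GA, Dhrs3 (102 ± 2.48 FPKM) and Rbp4 (34.2 ± 1.37) kept the first places, while Crabp2 went from the third place to a level shared with Aldh1a1 (SD, n = 2). The libraries of those 2 genes overlapped at 4.90 and 4.91 FPKM for Crabp2 and 4.93 and 4.75 for Aldh1a1. Among all genes tested, the mean level of Dhrs3 stood at percentile 90.8 and that of Rbp4 at percentile 64.1.

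The gene of the retinol carrier was called higher under every alternative. Rbp4 (ENSMUSG00000024990) was at 8.88 and 10.2 FPKM in the DMSO libraries and at 35.2 and 33.3 in the GA libraries. The lowest GA value was 3.25 times the highest DMSO value. The means differed 3.58-fold (limma log2 fold change 1.74 ± 0.08, SE, with an adjusted p = 2.00e-06), and the log2 fold change stood at percentile 98.0 of all genes tested. After the shift it was 1.51 (adjusted p = 3.07e-06). The smallest whole reads that gave these values were 300 and 286 with DMSO and 825 and 890 with GA.

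Rbp4 is a known product of adipocytes, and adipocyte markers were also higher. So were most of the marrow stromal, macrophage and osteoclast markers tested (median log2 fold changes 1.11, 0.65 and 1.58). All 9 adipocyte markers were higher (median log2 fold change 5.63), Cfd and Retn were at 0 in both DMSO libraries, and the summed FPKM of the 9 was 19.8 and 19.9 with DMSO and 4756 and 4090 with GA, where Fabp4 and Adipoq were the most abundant. The 9 osteoblast markers were all lower (median -0.76), led in level by Col1a1 and Ibsp. The adipocyte and osteoblast calls all held after the shift. The shares of all genes tested were 46.3% higher and 11.9% lower as deposited, and 19.5% and 27.9% after the shift. In a bulk sample, a larger share of cells of 1 type and more RNA per cell of that type cannot be told apart, and the part of cell composition in the rise of Rbp4 and of the other retinoid genes was not tested. The 3 genes whose log2(FPKM + 1) values over the 4 libraries, each centred on its own mean, lay nearest to Rbp4 were Nr1h3 (Euclidean distance 0.0392, log2 fold change 1.75), Lpin1 (0.0485 and 1.76) and Bnip3 (0.0853 and 1.71). Nr1h3 encodes the liver X receptor alpha, Lpin1 a phosphatidate phosphatase and Bnip3 a mitochondrial outer membrane protein.

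The promoter of Rbp4 is shown because this gene had the largest change of the 6 in log2(FPKM + 1). That rank depends on the pseudocount, since Aldh1a1 had the larger log2 fold change with a pseudocount of 0.1 (2.13 against 1.83), with voom (2.01 against 1.63) and in the ratio of means. The 250 bases before its start lie on the minus strand of chromosome 19 at chr19:38125322-38125571 (RefSeq, build GRCm38.p6, which is not the build named in the processing notes). Capitals mark, from 5′ to 3′, a CCAAT box read on the opposite strand (ATTGG) and the nuclear receptor half-site GGGTCA, also on the opposite strand (TGACCC).
Rbp4: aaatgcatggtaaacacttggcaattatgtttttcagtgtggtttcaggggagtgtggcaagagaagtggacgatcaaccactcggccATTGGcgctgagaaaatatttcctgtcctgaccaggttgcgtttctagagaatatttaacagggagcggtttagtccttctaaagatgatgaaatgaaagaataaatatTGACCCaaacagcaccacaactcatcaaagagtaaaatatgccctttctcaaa
Promoter windows from 250 bases before to 50 bases after the start were at hand for 6 of the 9 genes (Rbp4, Stra6, Crabp1, Aldh1a1, Aldh1a2 and Dhrs3). On either strand, CCAAT was found in 4 of the 6 (Rbp4, Aldh1a1, Aldh1a2 and Dhrs3) and in 37.4% of all 32851 windows. GGGTCA was found in 2 (Rbp4 and Aldh1a1) and in 13.7% of all windows. AGGTCA, the other half-site searched, was in none of the 6 and in 16.3% of all windows, and ACANNNTGT, a core of the glucocorticoid element, was in 1 (Crabp1) and in 6.85%. These matches describe letters within short windows and are not evidence of binding.

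Stra6 (ENSMUSG00000032327), the gene of the RBP4 receptor, was nearly silent. It was at 0.117 and 0.0566 FPKM with DMSO and at 0 and 0.0591 with GA, from 5, 2, 0 and 2 reads. The groups overlapped, and at this depth no difference was detectable. With no minimum FPKM its log2 fold change was -0.08 (adjusted p = 0.36 from limma), in a test where 25.5% of 23404 genes were called in either direction. The related retinol transporter gene Stra6l was not tested either (0.159 and 0.222 FPKM with DMSO, 0.289 and 0.148 with GA). Among the 8 other binding and uptake genes listed, Rbp2, Rbp3 and the RBP4 partner gene Ttr were listed at 0 in all 4 libraries. The only one tested was Fabp5, whose product binds fatty acids and also retinoic acid. Fabp5 went from 22.5 ± 1.91 to 90.9 ± 7.85 FPKM (SD, n = 2), 4.03-fold (log2 fold change 1.97, adjusted p = 1.41e-06 from limma).

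The genes of the cellular retinoic acid binding proteins were low or lower. Crabp2 (ENSMUSG00000004885), whose product delivers retinoic acid to its nuclear receptors, was at 5.71 and 6.11 FPKM with DMSO and at 4.90 and 4.91 with GA, from 141, 125, 84 and 96 reads. It was the single retinoid gene of the 9 called lower, by a small margin. The means differed 1.21-fold (limma log2 fold change -0.23 ± 0.08, SE, with an adjusted p = 0.0343). This call was lost when any 1 library was left out, with an adjusted p of 0.0597 without DMSO replicate 1, 0.171 without DMSO replicate 2, 0.0935 without GA replicate 1 and 0.086 without GA replicate 2. After the shift, the log2 fold change was -0.46 (adjusted p = 0.0016), and over all 15 alternatives the adjusted p ranged from 0.00154 to 0.171. The genes nearest to Crabp2 in their centred values were Gbf1, Emp2 and Slc50a1 (distances 0.0146, 0.0161 and 0.0177).

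Crabp1 (ENSMUSG00000032291), whose product is linked to the breakdown of retinoic acid, was listed at 0 in both DMSO libraries and in GA replicate 2, and at 0.116 FPKM (2 reads) in GA replicate 1. A count of 0 allowed up to 3 reads, which is 0.120 and 0.145 FPKM in the DMSO libraries and 0.152 in GA replicate 2, so no difference was detectable. With no minimum FPKM the log2 fold change was 0.08 (adjusted p = 0.432 from limma). The coding sequences of Crabp1 and Crabp2 are 70.3% identical and share no 50-base window.

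Of the enzymes, those of the reversible step between retinol and retinaldehyde rose by less than 2-fold. Rdh10 (ENSMUSG00000025921), the dehydrogenase that makes retinaldehyde in the mouse embryo, was at 3.18 and 3.32 FPKM with DMSO and at 5.25 and 5.23 with GA. The spread within each group was small, and every GA library was 1.57 to 1.65 times every DMSO library. Rdh10 was 1.61-fold higher (limma log2 fold change 0.55 ± 0.08, SE, with an adjusted p = 8.34e-04). Dhrs3 (ENSMUSG00000066026), the reductase that runs the step backwards and whose gene is itself induced by retinoic acid, was at 72.3 and 74.6 FPKM with DMSO and at 104 and 100.2 with GA. It rose 1.39-fold (limma log2 fold change 0.47 ± 0.05, SE, with an adjusted p = 2.77e-04), from 2865 and 2449 reads to 2854 and 3148. In reads alone the groups overlapped, since the GA libraries were shallower, so the call rests on the scaling of FPKM to depth.

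Both rises were smaller after the shift. The log2 fold change was then 0.32 for Rdh10 (adjusted p = 0.0116) and 0.24 for Dhrs3 (adjusted p = 0.00717), and both stayed past the threshold. The FPKM of Dhrs3 was 22.7 and 22.5 times that of Rdh10 in the DMSO libraries and 19.8 and 19.2 times in the GA libraries. This ratio within each library does not depend on scaling to depth, but its size depends on the gene lengths assumed. The transcript of the reductase thus stood far above that of the dehydrogenase in both groups, and somewhat less far with GA.

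**Figure D2:**
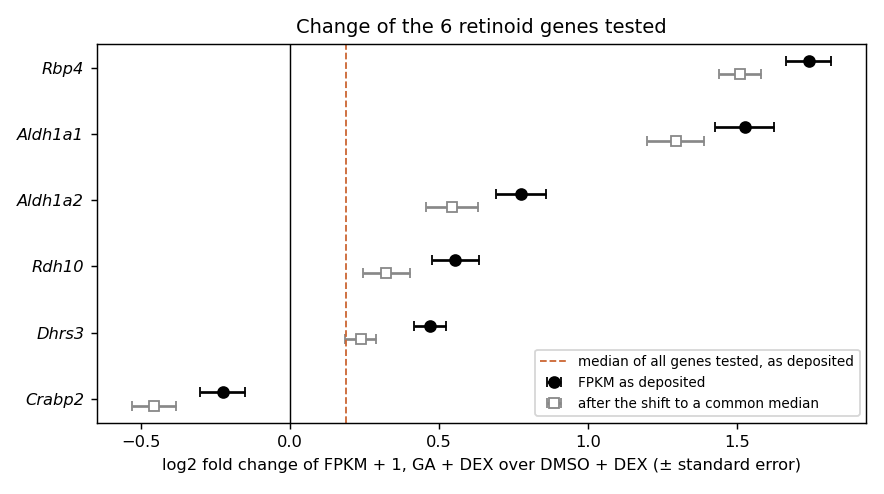
Log2 fold change of FPKM + 1 for GA plus DEX over DMSO plus DEX (horizontal axis) of the 6 retinoid genes tested, with bars of 1 standard error from limma, as deposited (filled circles) and with the libraries moved to a common median (open squares). The dashed line is the median of all genes tested (0.19), and Crabp2 is the only gene left of 0.

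Of the 3 retinaldehyde dehydrogenase genes, whose products make retinoic acid, Aldh1a1 and Aldh1a2 were higher and Aldh1a3 was not tested. Aldh1a1 (ENSMUSG00000053279), the ALDH1A gene best known from fat tissue, was at 0.941 and 1.12 FPKM with DMSO and at 4.93 and 4.75 with GA. It had 60 and 59 reads with DMSO and 218 and 240 with GA. The means differed 4.70-fold (limma log2 fold change 1.53 ± 0.10, SE, with an adjusted p = 1.45e-05), the highest fold of the 6 genes tested, with library pairs from 4.25 to 5.24. Aldh1a2 (ENSMUSG00000013584), the main retinoic acid source of the mouse embryo, was at 3.57 and 3.16 FPKM with DMSO and at 6.60 and 6.32 with GA. It rose 1.92-fold (limma log2 fold change 0.77 ± 0.08, SE, with an adjusted p = 2.15e-04). After the shift the log2 fold changes were 1.29 for Aldh1a1 and 0.54 for Aldh1a2, and both remained called (adjusted p = 3.01e-05 and 0.00169).

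Aldh1a3 (ENSMUSG00000015134), the third dehydrogenase of the family, was low and variable. It was at 0.0656 and 0.317 FPKM with DMSO and at 0.315 and 0.359 with GA, from 3, 12, 10 and 13 reads. DMSO replicate 2 reached the level of the GA libraries, and with no minimum FPKM the log2 fold change was 0.17 (adjusted p = 0.367 from limma). The summed FPKM of Aldh1a1, Aldh1a2 and Aldh1a3 went from 4.57 and 4.59 to 11.8 and 11.4, 2.54-fold. Within that sum Aldh1a1 made up 20.6% and 24.3% with DMSO and 41.6% in both GA libraries, and Aldh1a2 made up 78.0% and 68.8% with DMSO and 55.7% and 55.3% with GA. Aldh1a2 was thus the larger part in every library, and the share of Aldh1a1 was larger with GA.

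Beside Aldh1a1 lies a close copy, Aldh1a7, the next protein-coding gene on mouse chromosome 19. It is outside the 9 genes and is given because reads of the pair could be exchanged. Whether its product oxidises retinaldehyde was not tested, so its FPKM is not read as a capacity to make retinoic acid. Aldh1a7 was at 0.296 and 0.301 FPKM with DMSO and at 14.1 and 12.8 with GA, from 19, 16, 630 and 649 reads. The rise was 45.1-fold (limma log2 fold change 3.47 ± 0.09, SE, with an adjusted p = 1.46e-07), well above that of Aldh1a1. With DMSO, Aldh1a7 was at 0.315 and 0.269 times the FPKM of Aldh1a1, and with GA at 2.87 and 2.69 times. The coding sequences are 91.6% identical over 1503 bases, and 7.53% of the 50-base coding windows of Aldh1a1 are found unaltered in Aldh1a7. The untranslated parts of the transcripts were not compared. Among Aldh1a1, Aldh1a2 and Aldh1a3 the coding identity was 66.9% to 68.5%, with no shared 50-base window. Aldh1a7 was not compared with Aldh1a2 or Aldh1a3. The division of reads between Aldh1a1 and Aldh1a7 is thus uncertain to the extent that short reads fall in shared stretches, and the rise of Aldh1a1 without such reads was not tested. Summed, Aldh1a1 and Aldh1a7 went from 1.24 and 1.42 to 19.1 and 17.5 FPKM, 13.8-fold.

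The first coding bases show how alike the pair is. The first 66, all in 1 exon on build GRCm38, lie at chr19:20602012-20602077 on the plus strand for Aldh1a1 and at chr19:20727447-20727512 on the minus strand for Aldh1a7. They are given 5′ to 3′ from the annotated transcripts (GENCODE M21), with the 3 bases that differ in capitals and 63 identical.
Aldh1a1: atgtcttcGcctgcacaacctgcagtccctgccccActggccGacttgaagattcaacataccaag
Aldh1a7: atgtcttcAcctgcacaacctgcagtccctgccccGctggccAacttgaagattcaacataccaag
The likeness goes on upstream of the start. Of the 110 bases before the start, at chr19:20601858-20601967 (plus strand) for Aldh1a1 and chr19:20727557-20727666 (minus strand) for Aldh1a7 (RefSeq, GRCm38.p6), 104 are identical, and capitals mark the 6 that differ.
Aldh1a1: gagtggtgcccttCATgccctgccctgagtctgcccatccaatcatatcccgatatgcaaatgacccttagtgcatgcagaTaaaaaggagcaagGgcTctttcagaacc
Aldh1a7: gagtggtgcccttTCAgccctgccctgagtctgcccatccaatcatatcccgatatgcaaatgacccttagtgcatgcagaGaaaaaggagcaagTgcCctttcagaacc
Both hold CCAAT beginning 72 bases and TGACCC, the half-site GGGTCA on the opposite strand, beginning 49 bases before the start, and none of the capitals falls in either motif. Farther out the likeness ends, with 21 identical bases of the first 100 of the windows when set side by side without gaps. The near copies thus had almost the same letters close to the start and different changes in FPKM.

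**Figure D3:**
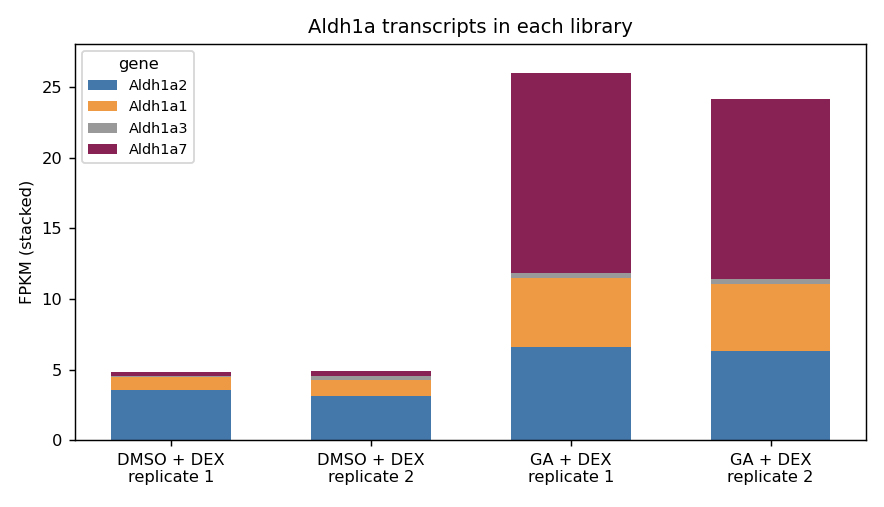
Stacked FPKM of Aldh1a2, Aldh1a1, Aldh1a3 and Aldh1a7 (vertical axis, from 0) in each of the 4 libraries. The stacks reach 4.87 and 4.90 with DMSO and 26.0 and 24.2 with GA, where Aldh1a7 is the largest segment. The action of the Aldh1a7 product on retinaldehyde was not tested.

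The other genes of the retinoid pathway were taken from lists by role. Of 70 listed genes besides the 9, 34 were tested, of which 25 were higher, 3 lower and 6 not called, with a median log2 fold change of 0.52. After the shift 18 were higher and 4 lower. Of all genes tested, 46.3% were higher and 11.9% lower as deposited and 19.5% and 27.9% after the shift, and the counts of each role stand against these same shares. Of the 11 other retinol and retinaldehyde oxidoreductases tested, 8 were higher, 1 lower and 2 not called (4 higher and 1 lower after the shift). Aldh1a7 is counted among the higher ones, although the action of its product on retinaldehyde was not tested. Adh1, the class I alcohol dehydrogenase that also oxidises retinol, was at 3.18 and 3.09 FPKM with DMSO and at 41.6 and 30.0 with GA, 11.4-fold (adjusted p = 1.74e-06 from limma). Rdh13, a mitochondrial member of the family, was 1.60-fold higher and Dhrs7, a reductase of the endoplasmic reticulum, 1.15-fold lower. Rdh11, a retinaldehyde reductase, had a log2 fold change of 0.09 (adjusted p = 0.194) and Adh7 one of 0.17 (adjusted p = 0.191). Adh4, Rdh7, Rdh8, Sdr16c5 and Aldh8a1 were listed at 0 in all 4 libraries.

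Of the genes listed for esterifying or releasing retinol, or for the handling and uptake of lipids and carotenoids, all 6 tested were higher. Their median log2 fold change was 4.57. Lpl rose 56.6-fold, Lipe 79.2-fold and Cd36 29.2-fold. These are known chiefly for triglycerides and fatty acids (lipoprotein lipase, hormone-sensitive lipase and a fatty acid translocase), and Lipe also stands among the adipocyte markers. Lrat, the main retinol esterifying enzyme of liver and eye, and Rpe65, the isomerase of the visual cycle, were listed at 0 in every library. The other genes tested were Pnpla2 (22.6-fold higher), Dgat1 (8.42-fold) and Scarb1 (2.34-fold). The values of this list thus come from these 6 genes and not from Lrat or Rpe65.

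Cyp26b1, the gene of the enzyme that breaks down retinoic acid, moved against the dehydrogenases. It was at 71.0 and 72.1 FPKM with DMSO and at 33.8 and 44.3 with GA, from 8137, 6838, 2691 and 4020 reads. The GA libraries differed from each other more than the DMSO libraries did, and both lay below them. Cyp26b1 was 1.83-fold lower (limma log2 fold change -0.87 ± 0.11, SE, with an adjusted p = 4.87e-04). Its FPKM was 15.5 and 15.7 times the sum of Aldh1a1, Aldh1a2 and Aldh1a3 with DMSO and 2.86 and 3.87 times with GA. Cyp26a1 and Cyp26c1, the other enzymes of the CYP26 family, had at most 2 reads in any library. Cyp1b1, which is known to oxidise retinol and retinaldehyde besides other substrates, was 1.78-fold higher (71.1 and 71.1 FPKM with DMSO, 126 and 127 with GA, adjusted p = 1.16e-05). Transcripts do not measure enzyme activity or retinoic acid, neither of which was assayed in these libraries.

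Of the 4 retinoid receptor genes tested, 2 were higher, 1 lower and 1 not called. Rara went from 13.1 ± 0.159 to 18.6 ± 0.0828 FPKM, 1.42-fold higher (adjusted p = 3.59e-04), and Rxra from 65.6 ± 3.17 to 105.8 ± 2.31, 1.61-fold higher (adjusted p = 6.09e-05; SD, n = 2, limma). Rarg, the most abundant of the retinoic acid receptor genes in both groups, was 1.53-fold lower, from 62.0 ± 3.55 to 40.6 ± 0.146 FPKM (adjusted p = 1.36e-04 from limma; SD, n = 2). The FPKM of Rara was 0.219 and 0.205 times that of Rarg with DMSO and 0.459 and 0.458 times with GA. Rxrb was not called as deposited (log2 fold change -0.10, adjusted p = 0.22) and was lower after the shift (-0.33, adjusted p = 0.00266). Rarb and Rxrg were below the minimum. The values of Rarb, a classic retinoic acid target, were 0.265 and 0.320 FPKM with DMSO and 0.168 and 0.134 with GA, from 25, 25, 11 and 10 reads. With no minimum FPKM Rarb was not called (log2 fold change -0.17, adjusted p = 0.0795 from limma).

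Genes known to respond to retinoic acid went both ways. Of 25 listed, 13 were tested, of which 8 were higher, 2 lower and 3 not called. The shift left 5 higher and 2 lower. The median log2 fold change was 0.36. Dhrs3 was among the higher ones, and Crabp2 and Cyp26b1 were the lower ones. Rarres2, the gene of the adipokine chemerin, was at 0.717 and 0.613 FPKM with DMSO and at 19.3 and 16.9 with GA, 27.3-fold (adjusted p = 1.46e-07 from limma), and Nrip1, a nuclear receptor corepressor, rose 3.36-fold. Nr2f2, an orphan nuclear receptor gene, rose 1.67-fold. Hoxa5 and Hic1, both transcription factor genes, were not called (log2 fold changes 0.21 and 0.20, adjusted p = 0.0633 and 0.0603). Hoxb1 was listed at 0, and Cyp26a1 and Stra6, known as strongly induced by retinoic acid, had 5 reads or fewer in every library.

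**Figure D4:**
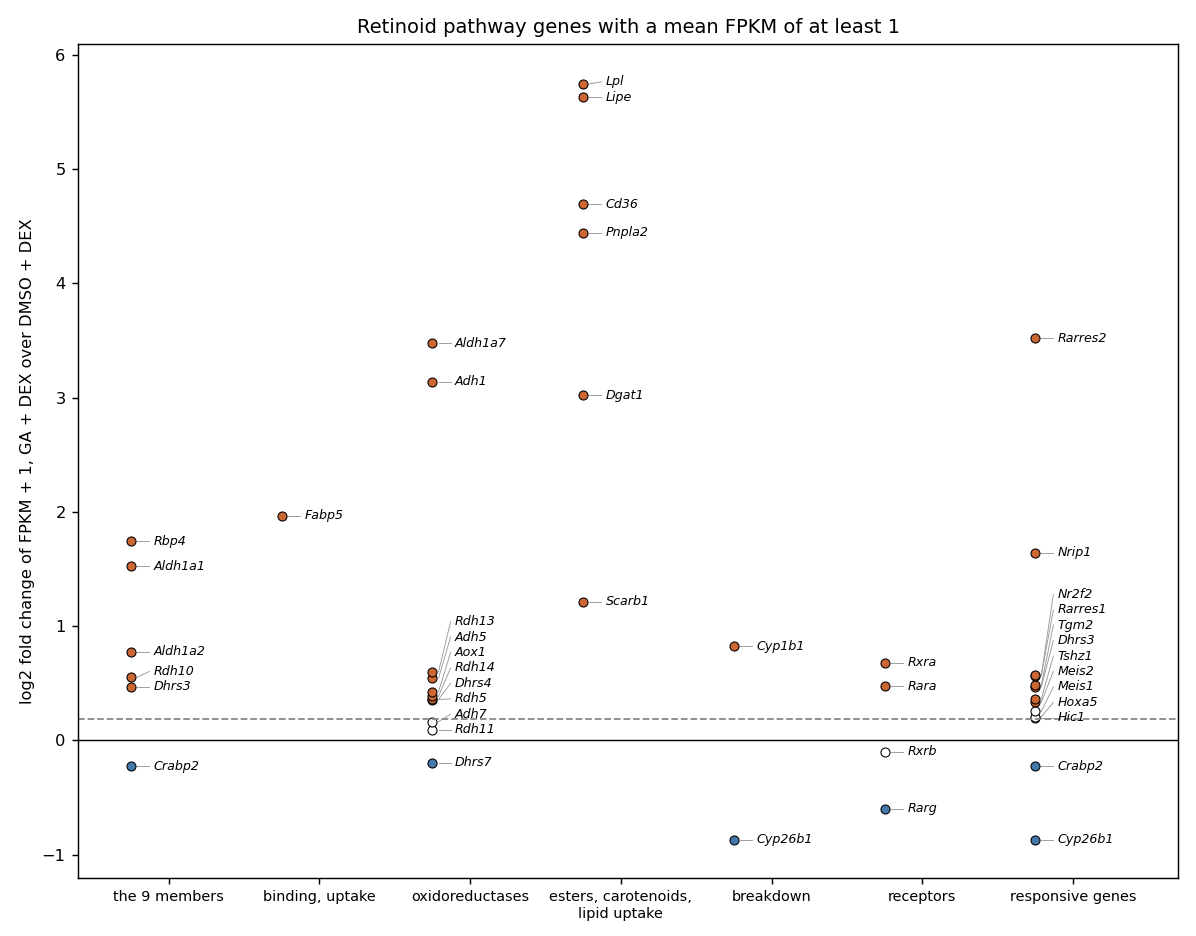
Log2 fold change of FPKM + 1 for GA plus DEX over DMSO plus DEX (vertical axis) of the retinoid genes tested, by role. Orange points were called higher, blue points lower and open points were not called, the dashed line is the median of all genes tested (0.19), Cyp26b1, Crabp2 and Dhrs3 appear in more than 1 column, and Lpl (5.74) is the highest and Cyp26b1 (-0.87) the lowest.

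Markers of other cells went different ways. All 8 osteoclast markers tested were higher, also after the shift (median log2 fold change 1.58 as deposited). Their list had a summed FPKM of 306 and 291 with DMSO and 941 and 878 with GA, Ctsk and Mmp9 being the most abundant. Beside these counts, 46.3% of all genes tested were higher and 11.9% lower as deposited, and 19.5% and 27.9% after the shift. The endothelial markers tested, Cdh5 and Pecam1, were both higher from low levels (all 8 listed summed to 3.16 and 3.07 FPKM with DMSO, 9.03 and 5.32 with GA). Of the dendritic cell markers, 7 of 9 were below the minimum and Cd209a was at 0, and H2-Ab1 was lower while Zbtb46 was not called (summed 11.7 and 14.3 FPKM with DMSO, 10.1 and 10.7 with GA). Of the 7 pericyte and smooth muscle markers tested, 2 were higher, 1 lower and 4 not called, and after the shift 2 were higher and 5 lower. The most abundant, Acta2 and Tagln, were among those called only after the shift, as lower (adjusted p = 0.0426 and 0.0125 from limma). The list summed to 357 and 414 FPKM with DMSO and 446 and 434 with GA. That sum includes Mcam, 1 of the 2 higher genes, which went from a mean of 1.43 to 57.5 FPKM (40.2-fold). The part of any of these cells in the values of the retinoid genes was not tested.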

How the data were processed

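RNA for 4 libraries of mBMSCs was enriched with oligo(dT) beads and sequenced by a commercial service. The authors deposited FPKM values, 1 column per library, all matched by title (0 columns without a sample). The submitters' notes list mm9, TopHat2 2.0.12, Bowtie2 2.2.3 and HTSeq 0.6.1 without roles. The sources used here give neither the annotation nor the strand setting. Symbols matched 46488 of 47069 identifiers. Whole reads (tolerance 0.0001) were recovered from FPKM and mean transcript length in GENCODE M21, or else the shortest length that fitted, for all 23404 genes above 0, and summed to 99.4% of the depth. Tests used limma 3.58.1 in R 4.3.3 (trend, pseudocount 1, minimum mean FPKM 1, 5.38 prior and 2 residual degrees of freedom), checked on simulated data. The 9 genes and all lists were chosen with earlier results of these data known. Named are the 9 genes, for each other retinoid list up to 3 called genes per direction by log2 fold change and the 2 most abundant not called, the 3 nearest genes of Rbp4 and Crabp2, Aldh1a7, and for each marker list the genes at 0 and the 2 most abundant. The list of blood cell markers is not reported here. Rarb, Rxrg, Stra6l, Cyp26a1, Cyp26c1, Pnpla2, Dgat1, Scarb1, Mcam, Cfd and Retn were added after their values were seen. So were the genes of the other retinoid lists that were at 0 in all 4 libraries. Alternatives were pseudocounts of 0.1 and 5, no minimum FPKM or 5, a median shift and quantile normalization. Others were FPKM without the 10 most abundant genes in the depth denominator, limma without the trend and no moderation. The rest were voom on recovered reads, each library left out, and a replicate block. Figures used matplotlib 3.10.9.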

Additional observations from a re-analysis of the deposited data

How the results depend on the processing

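Over the 15 alternatives, Rbp4, Aldh1a1, Aldh1a2, Rdh10 and Dhrs3 kept their direction and their call wherever they were tested, with log2 fold changes of 1.43 to 1.83, 0.71 to 2.13, 0.45 to 0.92, 0.28 to 0.67 and 0.24 to 0.49. With a minimum mean FPKM of 5, Aldh1a1, Aldh1a2 and Rdh10 were not tested, so 2 of the retinoid genes were higher. Of all 9059 genes tested at that minimum, 4584 were higher and 1209 lower. Crabp2 kept its direction but not its call with no minimum FPKM or without moderation (0 of the 9 genes lower under each). Of all genes tested, 1224 of 23404 were lower with no minimum FPKM and 428 of 12174 without moderation. Crabp2 also lost its call without any 1 of the libraries (log2 fold change -0.27 to -0.18). Of all 12174 genes tested, 2380 were higher and 3392 lower after the shift to a common median, and 2394 and 3273 after quantile normalization. Without moderation these numbers were 2021 and 428, and with voom on recovered reads 2830 and 3208. With the 10 most abundant genes left out of the depth denominator only, 3174 of 12497 genes tested were higher and 2580 lower. Leaving out each library gave 4475 to 5174 higher and 1136 to 1411 lower. Without a library the lone sample of a group is assumed to vary like the other group. With the replicate number as a block, 5528 genes were higher and 1433 lower, and no call of the 9 genes changed (Crabp2 adjusted p = 0.048). The deviations of same-numbered libraries had a correlation of -0.025 across genes. From so few libraries this value cannot tell whether same-numbered libraries shared a mouse or culture. Aldh1a7 and Cyp26b1 were followed after their values were seen. Aldh1a7 kept its call throughout (log2 fold change 1.80 to 5.23), and Cyp26b1 lost its call without moderation (adjusted p = 0.101). Depth limits Stra6, Crabp1 and Aldh1a3, with at most 13 reads in any library.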
